A study of Homo sapiens with 39 samples.

Results

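The 35 genes described here encode aminoacyl-tRNA synthetases, the enzymes that join each amino acid to its transfer RNA. They comprise 19 enzymes that serve the cytosol and 16 mitochondrial enzymes, whose symbols end in 2, and they were taken by name from a table of 57773 gene identifiers. All 35 were found in the table and passed the filter on low counts, as did 14460 genes in all. RNA was sequenced from JJN3, an established human multiple myeloma cell line, in 39 libraries that form 13 groups of 3. Cells were given GSK-J4, ZnSO4 or DMSO for 1, 3, 6 or 24 h, and 1 further group was taken at T0. GSK-J4 inhibits the KDM6 demethylases, which remove methyl groups from histone H3, ZnSO4 is a zinc salt, and DMSO is the solvent that the compounds were set against. All groups were of this 1 line in RPMI medium with 10% FCS, and no dose is given in the sources used here.

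Levels are CPM, counts put on a common library size with TMM scaling, log2 fold changes (log2FC) are given ± their standard error, and a gene rose or fell where its adjusted p was under 0.05. Library totals ranged from 4347745 to 10695671 counts (median 6010529), so that 3 counts equal 0.280 to 0.690 CPM. The labels do not say that the 3 libraries of a group came from separate cultures, so the p-values rest on the spread of the libraries alone, and that spread may be technical. Groups whose libraries do not overlap were common. Against DMSO this held, in either direction, for 10.5%, 22.4%, 35.5% and 44.1% of all genes tested at 1, 3, 6 and 24 h of GSK-J4. With ZnSO4 it held for 12.1%, 27.5%, 23.9% and 25.9%. Separate groups are therefore mentioned below as a description of single genes, not as further support for a call. In bulk RNA, fewer cells of a kind and less RNA per cell cannot be told apart. Plasma cell markers fitted the label, with 9 of 9 genes passing the filter and a summed level of 1810 to 2666 CPM per library. Of the markers of other cells, 0 of 5 T cell, 0 of 4 myeloid, 1 of 3 erythroid and 3 of 4 epithelial or stromal genes passed the filter, the last with a summed level of 41.7 to 116 CPM. Their part in the results was not tested.

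Cells carry a set of these enzymes for each compartment because the cytosol and the mitochondria each run their own protein synthesis. Cytosolic enzymes charge the tRNAs that feed cytosolic ribosomes, while the mitochondrial ones are encoded in the nucleus, imported, and charge the tRNAs that read mitochondrial messages. The match is not exact: GARS1 (glycine) and KARS1 (lysine) each make both forms from 1 gene, EPRS1 joins the glutamate and proline activities that EARS2 and PARS2 hold separately, FARSA and FARSB are subunits of 1 phenylalanine enzyme set against the single-chain FARS2, and QARS1 (glutamine) has no mitochondrial counterpart. Many cytosolic synthetase genes are known targets of ATF4, the transcription factor of the integrated stress response, which together with C/EBP proteins binds a composite DNA element in their promoters. Plasma cells and myeloma cells secrete large amounts of antibody chains and depend on high rates of cytosolic translation.

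Promoter sequences from RefSeq (GRCh38.p14, 250 bases before to 50 after each start) were available for 16 cytosolic and 14 mitochondrial genes; LARS1, VARS1, YARS1, AARS2 and VARS2 had none. The letters of the composite element, TGATGNAAN with N for any base, were searched on both strands. Counting a gene where any of its windows held one, a match was present for 7 of the 16 cytosolic genes (43.8%) and 1 of the 14 mitochondrial genes (7.14%), against 1215 of 27305 genes (4.45%) and 1268 of 35116 promoter windows (3.61%) in the whole table. A match is a description of the letters, not a site or a cause, and the windows around all 8 are printed because they are referred to again beside the responses of these genes. Each runs 5′ to 3′ on the strand of its gene, with the match in capitals.
AARS1 (chr16:70289666-70289719, minus strand): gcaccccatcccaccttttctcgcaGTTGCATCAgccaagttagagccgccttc
CARS1 (chr11:3057398-3057451, minus strand): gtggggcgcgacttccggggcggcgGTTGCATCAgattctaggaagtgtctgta
GARS1 (chr7:30594819-30594872, plus strand): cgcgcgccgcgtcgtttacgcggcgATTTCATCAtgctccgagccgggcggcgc
IARS1 (chr9:92293683-92293736, minus strand): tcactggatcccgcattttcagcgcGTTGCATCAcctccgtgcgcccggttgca
MARS1 (chr12:57488038-57488091, plus strand): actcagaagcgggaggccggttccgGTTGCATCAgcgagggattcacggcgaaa
NARS1 (chr18:57621807-57621847, minus strand): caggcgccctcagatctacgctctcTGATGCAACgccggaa
TARS1 (chr5:33440941-33440994, plus strand): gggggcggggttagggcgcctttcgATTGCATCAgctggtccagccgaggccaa
YARS2 (chr12:32756066-32756119, minus strand): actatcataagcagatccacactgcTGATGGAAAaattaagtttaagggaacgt

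The capitals read TGATG on the strand of the gene in NARS1 and YARS2 and the reverse complement, CATCA, in the other 6. AARS1, CARS1, IARS1 and MARS1 share GTTGCATCA, NARS1 holds its reverse complement TGATGCAAC, and TARS1 (ATTGCATCA), GARS1 (ATTTCATCA) and YARS2 (TGATGGAAA) each differ from it. Counted from the start of the gene, the match began at position -188 in AARS1 and -197 in YARS2 and lay between -34 and 15 in the other 6.

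Per kilobase of annotated exon, the median levels over the 39 libraries ran from 24.0 to 227 CPM per kilobase for the 19 cytosolic genes and from 2.19 to 37.2 CPM per kilobase for the 16 mitochondrial genes. GARS1 (227), NARS1 (217) and KARS1 (168 CPM per kilobase) were the highest, and HARS1 (histidine, 24.0) and CARS1 (cysteine, 26.3 CPM per kilobase) the lowest cytosolic genes. IARS2 (isoleucine, 37.2) and CARS2 (35.5 CPM per kilobase) led the mitochondrial class, above those lowest cytosolic members, and SARS2 (serine, 2.19) and VARS2 (valine, 3.15 CPM per kilobase) closed it. SARS2 shares 1492 exon bases with another annotated gene on the same strand, so its counts are uncertain. Because the use of strand in counting is not given in the sources used here, genes that overlap on opposite strands cannot be separated either, which concerns HARS1 with HARS2 (402 shared exon bases) and MARS1 with DDIT3 (62 shared exon bases) among others.

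After 6 h of GSK-J4 the cytosolic class moved mostly upward. Of its 19 genes 12 rose (all genes tested: 9.83%), 4 fell (all genes: 10.5%) and 3 did not pass, and the median log2FC was 0.32, against 0.011 over all genes tested. The largest rises were in CARS1, GARS1, AARS1 (alanine), SARS1 (serine) and MARS1 (methionine). CARS1 stood at 176, 160.2 and 174 CPM with GSK-J4, against 87.5, 86.1 and 79.3 CPM with DMSO (log2FC 1.01 ± 0.061, adjusted p = 1.4e-21). GARS1, the highest of these in CPM, reached 1204, 1186 and 1148 CPM with GSK-J4, against 612, 607 and 585 CPM with DMSO (log2FC 0.97 ± 0.044, adjusted p = 1.3e-27). AARS1 had 608, 576 and 592 CPM with GSK-J4, against 342, 324 and 308 CPM with DMSO (log2FC 0.87 ± 0.049, adjusted p = 6.97e-23). For these genes each GSK-J4 library lay well above each DMSO library, and the spread within a group was small beside the gap. SARS1 stood at 403, 397 and 405 CPM with GSK-J4, against 222, 239 and 244 CPM with DMSO (log2FC 0.77 ± 0.050, adjusted p = 2.15e-20). MARS1 had 433, 398 and 389.6 CPM with GSK-J4, against 268, 246 and 253 CPM with DMSO (log2FC 0.67 ± 0.054, adjusted p = 3.45e-16). Neither gene's groups overlapped. DDIT3, the stress response gene whose end lies against MARS1 on the other strand, had 29.3, 32.4 and 31.4 CPM with GSK-J4, against 4.12, 5.85 and 5.38 CPM with DMSO (log2FC 2.60 ± 0.15). At 24 h DDIT3 had 91, 92 and 99.4 CPM with GSK-J4, against 33.7, 30.7 and 35.8 CPM with DMSO, beside MARS1 at 307, 303 and 305 CPM with GSK-J4, against 195, 194 and 194 CPM with DMSO. The part of DDIT3 reads in the MARS1 counts was not tested at either time.

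The 7 other genes that rose at 6 h did so by less. They were TARS1 (threonine, log2FC 0.62 ± 0.049), NARS1 (asparagine, 0.54 ± 0.043), YARS1 (tyrosine, 0.51 ± 0.047), WARS1 (tryptophan, 0.45 ± 0.051), EPRS1 (0.32 ± 0.049), IARS1 (isoleucine, 0.32 ± 0.045) and LARS1 (leucine, 0.25 ± 0.055), with adjusted p from 1.41e-16 to 0.000297. TARS1 was at 797, 791 and 778 CPM with GSK-J4, against 514, 519.9 and 503 CPM with DMSO. NARS1, the gene with the match on its own strand, was at 1041, 992 and 973 CPM with GSK-J4, against 701, 698 and 666 CPM with DMSO. In both genes the lowest GSK-J4 library was above the highest DMSO library.

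**Figure D1:**
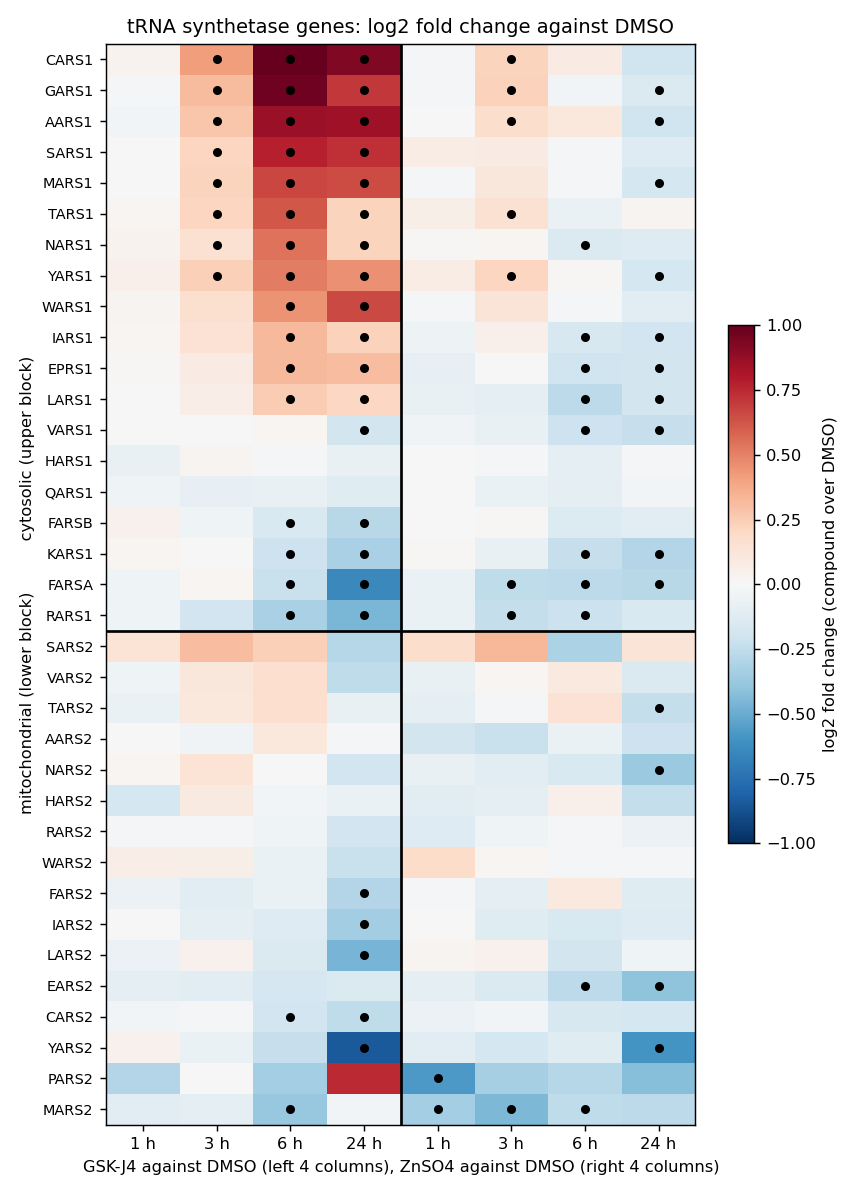
Log2 fold change against DMSO at the same time for each of the 35 genes (rows; 19 cytosolic above, 16 mitochondrial below) at 1, 3, 6 and 24 h of GSK-J4 (left) and of ZnSO4 (right). Colour is capped at 1 in either direction and a dot marks an adjusted p under 0.05; the cytosolic rows with GSK-J4 at 6 and 24 h hold 12 rises each, and the mitochondrial rows hold no rise that passed.

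The rise was already visible at 3 h and was not detected at 1 h. With 3 h of GSK-J4, 8 cytosolic genes rose (all genes: 1.45%) and 11 did not pass, with a median log2FC of 0.15 against 0.0037 over all genes; all 8 were among the 12 that rose at 6 h. CARS1 had 103, 107 and 112 CPM with GSK-J4, against 79.8, 79.8 and 81.7 CPM with DMSO (log2FC 0.42 ± 0.063, adjusted p = 1.65e-06). GARS1 had 739.5, 705 and 712 CPM with GSK-J4, against 584, 562 and 588 CPM with DMSO (log2FC 0.32 ± 0.044, adjusted p = 3.54e-07). AARS1 had 368, 364 and 357 CPM with GSK-J4, against 319, 301 and 277 CPM with DMSO (log2FC 0.28 ± 0.050, adjusted p = 7.76e-05). These 3 genes led at 3 h as at 6 h, and no GSK-J4 library fell within the range of the DMSO libraries. YARS1 stood at 414, 412 and 396 CPM with GSK-J4, against 343, 346 and 345 CPM with DMSO (log2FC 0.24 ± 0.047, adjusted p = 0.000377). MARS1 stood at 299, 310.1 and 302 CPM with GSK-J4, against 263, 257 and 262 CPM with DMSO (log2FC 0.22 ± 0.054, adjusted p = 0.00707). Their groups were also separate (all genes: 22.4%), while TARS1 (log2FC 0.21), SARS1 (0.21) and NARS1 (0.15) completed the 8. NARS1 lost its call under 8 of the 11 alternative settings, and single libraries decided those of MARS1 (lost without DMSO or GSK-J4 replicate 2), SARS1 (without DMSO replicate 1) and TARS1 (without DMSO replicate 3 or GSK-J4 replicate 1). Of the mitochondrial counterparts, CARS2 had 69.2, 66.7 and 65.3 CPM with GSK-J4, against 69.1, 64.3 and 69.6 CPM with DMSO (log2FC -0.012 ± 0.068, adjusted p = 0.968). AARS2 had 55.2, 57.6 and 61.6 CPM with GSK-J4, against 62.2, 56.4 and 59.9 CPM with DMSO (log2FC -0.032 ± 0.082, adjusted p = 0.923). Neither passed the test. YARS2 had 24.8, 27.4 and 28.1 CPM with GSK-J4, against 30.1, 29.2 and 24.2 CPM with DMSO (log2FC -0.067 ± 0.094, adjusted p = 0.835). MARS2 had 59.8, 57.1 and 64.6 CPM with GSK-J4, against 60.4, 67.3 and 66 CPM with DMSO (log2FC -0.090 ± 0.079, adjusted p = 0.699). These did not pass either, and the GSK-J4 and DMSO libraries overlapped for all 4. At 1 h of GSK-J4 edgeR called 0 of 19 cytosolic and 0 of 16 mitochondrial genes (all genes: 0.104% in either direction), with 0 and 1 genes of the classes at an unadjusted p under 0.05, and DESeq2 called 0 and 0.

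Between 3 and 6 h the effect of GSK-J4 itself grew. The 6 h effect minus the 3 h effect passed its own test, upward, for 10 of the 19 cytosolic genes (all genes: 1.75%), led by GARS1 (0.66 ± 0.063 on the log2 scale, adjusted p = 1.51e-11), CARS1 (0.59 ± 0.088) and AARS1 (0.59 ± 0.070). SARS1, MARS1, TARS1, NARS1, WARS1, YARS1 and EPRS1 were the others, with differences from 0.56 down to 0.24. Of the mitochondrial genes edgeR called 0 of 16 here, with 1 at an unadjusted p under 0.05, and DESeq2 called 0.

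At 24 h of GSK-J4 the same 12 cytosolic genes were again higher than in DMSO (all genes: 15.2%), 5 were lower (all genes: 16.8%) and 2 did not pass, with a class median of 0.23 against 0.022 over all genes. CARS1 again came first, with 114, 113 and 119.7 CPM with GSK-J4, against 61.4, 63.8 and 57.1 CPM with DMSO (log2FC 0.93 ± 0.065, adjusted p = 3.03e-18). AARS1 followed with 262, 274 and 267 CPM with GSK-J4, against 151, 147 and 148 CPM with DMSO (log2FC 0.85 ± 0.053, adjusted p = 1.78e-20). SARS1 had 294, 302 and 291 CPM with GSK-J4, against 179, 182 and 174 CPM with DMSO (log2FC 0.73 ± 0.051, adjusted p = 2.18e-18). In these 3 genes the DMSO libraries at 24 h were themselves below T0, most clearly in AARS1, and the GSK-J4 libraries stayed above them without overlap. A rise here is against DMSO only. AARS1 with GSK-J4 was below its T0 level (333, 335 and 347 CPM), while CARS1 (76.5 to 85.95 CPM at T0) and SARS1 (232 to 240.5 CPM) were above theirs. NARS1, a smaller rise, had 500, 545.5 and 539 CPM with GSK-J4, against 690, 699 and 684 CPM at T0. GSK-J4 was not tested against T0. GARS1 had 998, 1058 and 1003 CPM with GSK-J4, against 632, 633 and 603 CPM with DMSO (log2FC 0.71 ± 0.044, adjusted p = 1.08e-20). WARS1, which interferons are known to induce in human cells, had 302, 321 and 305 CPM with GSK-J4, against 195, 192 and 200.3 CPM with DMSO (log2FC 0.66 ± 0.049, adjusted p = 3.53e-17). WARS1 reached its highest level of all 13 groups here, whereas CARS1, GARS1, AARS1 and SARS1 had theirs at 6 h. From 6 to 24 h the effect of GSK-J4 shrank, by its own test, in TARS1 (-0.40 ± 0.069), NARS1 (-0.32 ± 0.062) and GARS1 (-0.26 ± 0.062 on the log2 scale), and turned further down in FARSA (-0.43 ± 0.091), 4 of 19 genes (all genes lower: 3.04%). With libraries scaled by their totals the median of all genes at 24 h moved to 0.11 (main: 0.022), with 3256 genes higher and 1526 lower in place of 2205 and 2424, and the cytosolic genes divided into 12 higher and 4 lower. MARS1 (0.65 ± 0.055), YARS1 (0.46 ± 0.047), EPRS1 (0.31 ± 0.049), IARS1 (0.23 ± 0.045), NARS1 (0.23 ± 0.045) and TARS1 (0.23 ± 0.049) were the other rises, and LARS1, the smallest (0.20 ± 0.056), lost its call when the filter on low counts was dropped.

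**Figure D2:**
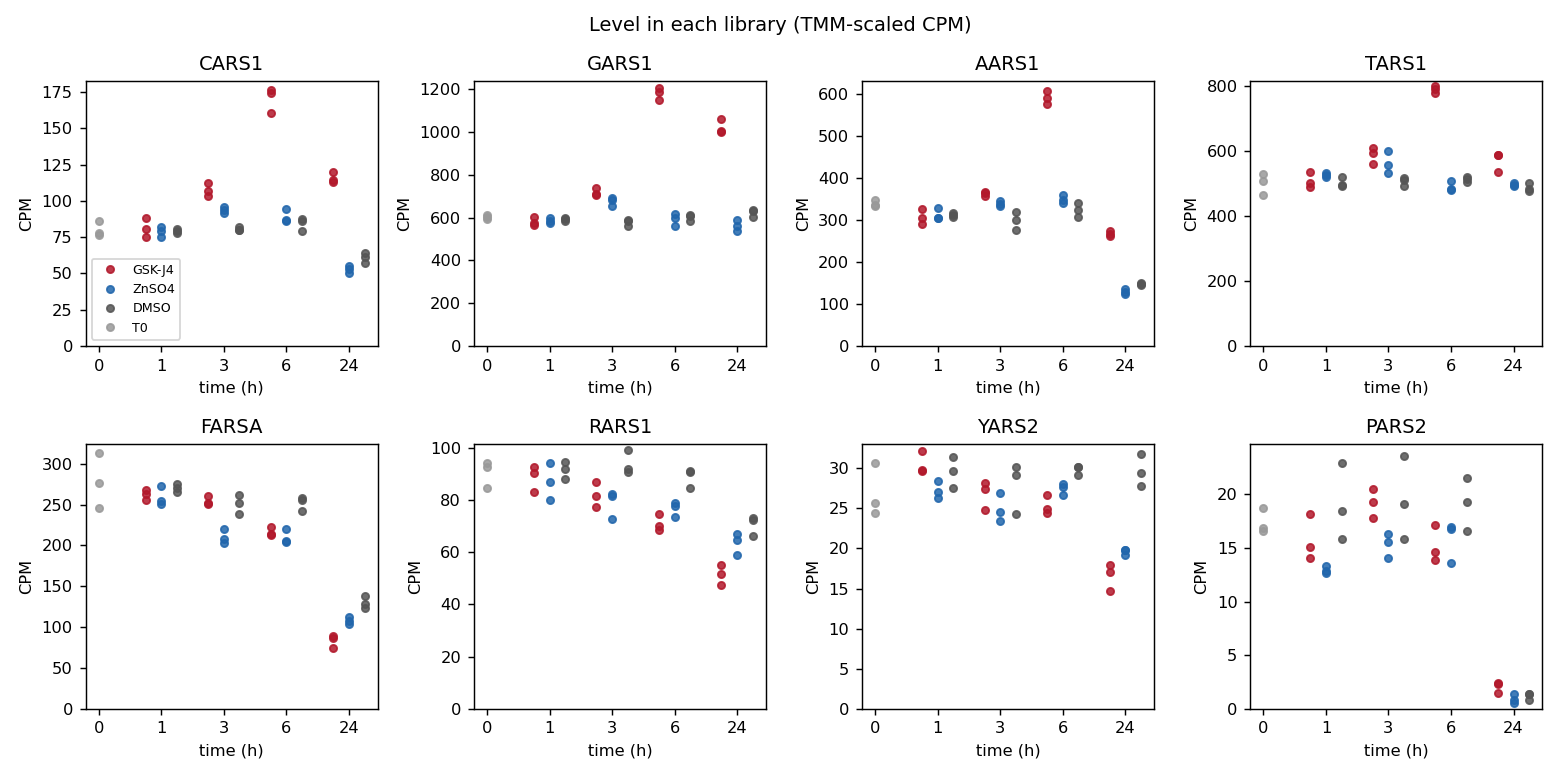
Levels of CARS1, GARS1, AARS1, TARS1, FARSA, RARS1, YARS2 and PARS2 in TMM-scaled CPM (vertical axes) by time in hours (horizontal axis), with T0 at 0; each point is 1 library of GSK-J4, ZnSO4, DMSO or T0. The GSK-J4 libraries of CARS1, GARS1 and AARS1 stand above the others at 6 and 24 h, those of RARS1 stand below DMSO at 6 and 24 h, and PARS2 is near the floor in every library at 24 h.

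A minority of the cytosolic genes moved the other way under GSK-J4. The arginine enzyme RARS1, the phenylalanine subunits FARSA and FARSB, and the lysine enzyme KARS1 fell at 6 h, and the same 4 together with VARS1 (valine) fell at 24 h. RARS1 had 68.4, 74.6 and 70.1 CPM with GSK-J4, against 84.5, 90.9 and 91.3 CPM with DMSO (log2FC -0.32 ± 0.071, adjusted p = 0.000418) at 6 h. FARSA had 222, 214 and 213 CPM with GSK-J4, against 255, 243 and 258 CPM with DMSO (log2FC -0.22 ± 0.059, adjusted p = 0.00425) at 6 h. KARS1 had 358, 359 and 357 CPM with GSK-J4, against 392, 428 and 418 CPM with DMSO (log2FC -0.20 ± 0.049, adjusted p = 0.00108) at 6 h. The falls were smaller than the largest rises, and the libraries of the groups did not overlap (all genes: 35.5%). At 24 h FARSA had 74.6, 88.8 and 86.3 CPM with GSK-J4, against 129, 124 and 138 CPM with DMSO (log2FC -0.65 ± 0.068, adjusted p = 1.11e-11). RARS1 had 51.6, 47.5 and 55.1 CPM with GSK-J4, against 73.2, 72.5 and 66.2 CPM with DMSO (log2FC -0.46 ± 0.076, adjusted p = 1.82e-06) at that time. Both stood further below DMSO than at 6 h, without overlap, and this change between times passed its own test for FARSA, as given above, but not for RARS1 (-0.14 ± 0.10, adjusted p = 0.551). FARSB fell by less (-0.15 ± 0.054 at 6 h, lost under 7 of the 11 alternative settings, and -0.27 ± 0.054 at 24 h), and VARS1 (-0.18 ± 0.056 at 24 h) lost its call when libraries were scaled by their totals or when replicate 1 of DMSO or of GSK-J4 was left out. HARS1 and QARS1 passed the test against DMSO at no time and with neither compound; with GSK-J4 they stood at -0.013 and -0.073 at 6 h and -0.077 and -0.12 at 24 h on the log2 scale.

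The mitochondrial class did not share the rise. At 6 h of GSK-J4, 2 of its 16 genes fell (all genes: 10.5%) and 14 did not pass, with a median log2FC of -0.066, and at 24 h 5 fell (all genes: 16.8%) and 11 did not pass, with a median of -0.21. Levels in this class were lower, with median CPM over the 39 libraries of 4.85 to 132, against 81.7 to 716 for the cytosolic genes. Small changes are therefore harder to call here. At 3 h NARS1 passed at a log2FC of 0.15 and SARS2 did not at 0.30. A gene that did not pass is not shown to be unchanged. MARS2, the mitochondrial methionine enzyme, had 50.5, 51.1 and 44.1 CPM with GSK-J4, against 62.3, 62 and 66.5 CPM with DMSO (log2FC -0.38 ± 0.085, adjusted p = 0.000493) at 6 h. CARS2 was the other, with 62.2, 59.6 and 58.9 CPM with GSK-J4, against 75.1, 62.7 and 68.5 CPM with DMSO (log2FC -0.19 ± 0.072, adjusted p = 0.0486). The CARS2 call was lost under 9 of the 11 alternative settings, among them DESeq2, while that of MARS2 held under all of them. At 24 h YARS2, for tyrosine, had 17.1, 18 and 14.7 CPM with GSK-J4, against 27.8, 29.4 and 31.8 CPM with DMSO (log2FC -0.84 ± 0.11, adjusted p = 3.02e-09). LARS2, for leucine, had 26.1, 25.6 and 27.4 CPM with GSK-J4, against 37.1, 36 and 36 CPM with DMSO (log2FC -0.46 ± 0.090, adjusted p = 3.4e-05). These were the largest falls of the class, with every GSK-J4 library below every DMSO library (all genes with separate groups: 44.1%). The log2FC of YARS2 was lower at 24 h than at 6 h by its own test (difference -0.61 ± 0.15, adjusted p = 0.00478), the 1 gene of 16 where this was so (all genes lower: 3.04%). IARS2 (-0.34 ± 0.057), FARS2 (-0.30 ± 0.11) and CARS2 (-0.25 ± 0.073) were the other 3 that fell at 24 h. Single libraries decided the FARS2 call, whose adjusted p of 0.0328 became 0.148 without DMSO replicate 3, 0.0938 without GSK-J4 replicate 1 and 0.0833 without GSK-J4 replicate 3. With libraries scaled by their totals FARS2 and CARS2 did not pass at 24 h, leaving 3 falls, and at 6 h 1 gene of the class rose and 1 fell. The genes of the class that did not pass ran from -0.34 (PARS2) to 0.24 (SARS2) at 6 h and from -0.29 (SARS2) to 0.75 (PARS2) at 24 h. AARS2, HARS2 (histidine), RARS2, SARS2, VARS2 and WARS2 passed against DMSO at no time with either compound. At 3 h edgeR called 0 of 16 mitochondrial genes, with 0 at an unadjusted p under 0.05, and DESeq2 called 0. The share of counts on genes encoded in the mitochondrial genome itself was 3.08 ± 0.0707% with GSK-J4 and 3.52 ± 0.0414% with DMSO at 6 h, and 4.61 ± 0.217% with GSK-J4 and 5.01 ± 0.227% with DMSO at 24 h (mean ± SD, n = 3 each), and its part in these results was not tested.

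Enzymes for the same amino acid were set side by side. The pairs are not all separate: EPRS1 was set against both EARS2 and PARS2, and FARS2 against both FARSA and FARSB. PARS2 was near the floor at 24 h. Of the 17 cytosolic and mitochondrial pairs, 13 had the higher log2FC in the cytosolic gene at each of 1, 3, 6 and 24 h of GSK-J4, so the count was the same at 1 h, where no member passed the test, as later. The median difference within pairs was 0.032 at 1 h, 0.096 at 3 h, 0.49 at 6 h and 0.45 at 24 h. With ZnSO4 the cytosolic gene was higher in 12, 12, 8 and 9 of the 17 pairs at these times, with median differences of 0.043, 0.13, -0.0020 and 0.010. No test over pairs was made. At 6 h AARS2 had 67.3, 69.4 and 66.7 CPM with GSK-J4, against 59.2, 67.1 and 63.5 CPM with DMSO (log2FC 0.10 ± 0.083, adjusted p = 0.431), beside the 0.87 of AARS1. SARS2 had 7.44, 4.48 and 5.08 CPM with GSK-J4, against 5, 4.82 and 4.91 CPM with DMSO (log2FC 0.24 ± 0.22, adjusted p = 0.507), beside the 0.77 of SARS1. In both the groups overlapped, and neither passed the test. The pairs in which the cytosolic enzyme fell were less far apart: at 6 h FARS2 had 23.8, 25.5 and 21 CPM with GSK-J4, against 23.7, 25.1 and 25.3 CPM with DMSO (log2FC -0.069 ± 0.11, adjusted p = 0.729). RARS2 had 41.9, 43.7 and 40.0 CPM with GSK-J4, against 41, 42.4 and 46.4 CPM with DMSO (log2FC -0.042 ± 0.093, adjusted p = 0.806). Both overlapped with DMSO and stood nearer to it than FARSA (-0.22) and RARS1 (-0.32).

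**Figure D3:**
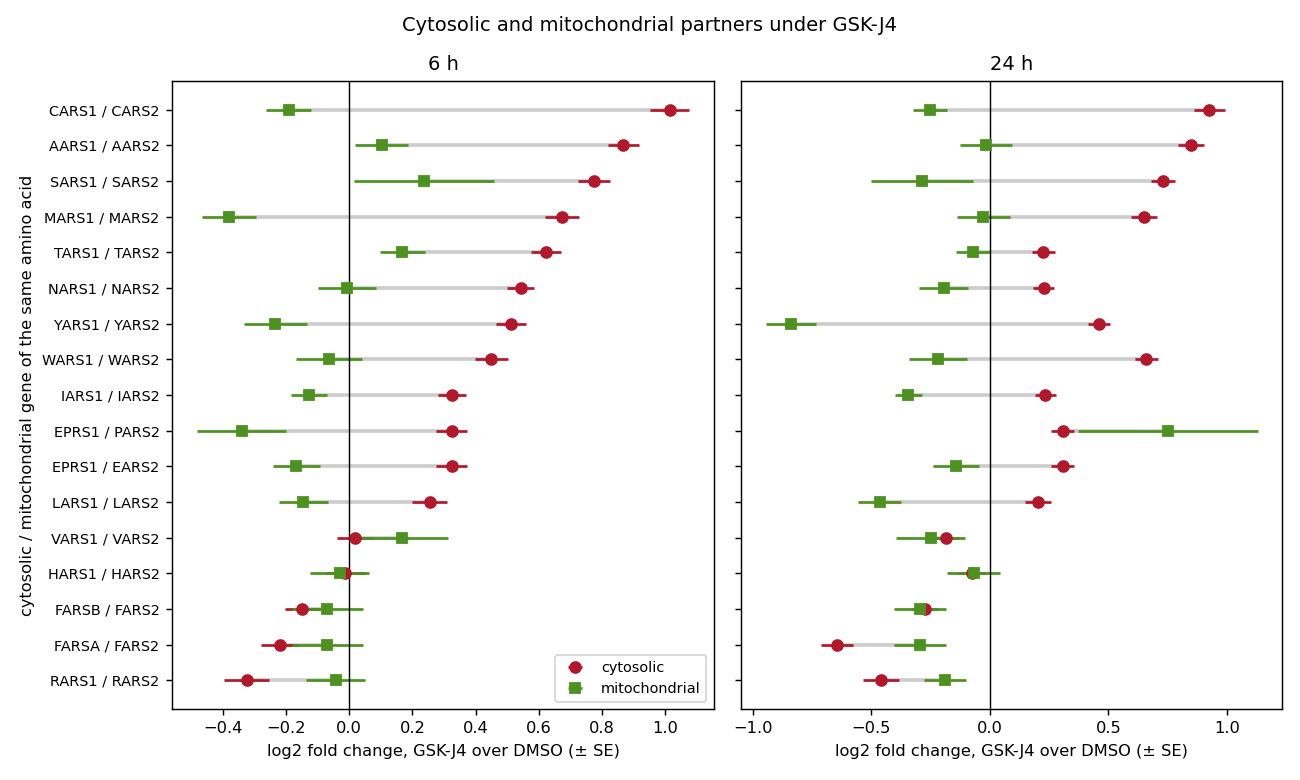
Log2 fold change of GSK-J4 against DMSO at 6 h and 24 h (horizontal axes) for each pair of cytosolic (circles) and mitochondrial (squares) enzymes of the same amino acid (rows); bars are ± 1 standard error. The cytosolic circle lies right of the square in 13 of 17 pairs at each time, as it also did at 1 and 3 h, and the median distance between them is 0.49 at 6 h and 0.45 at 24 h. EPRS1 and FARS2 each stand in more than 1 pair.

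At 24 h the same pairs stood as follows. CARS2 had 55.4, 55.3 and 54.9 CPM with GSK-J4, against 62.7, 67.6 and 66.8 CPM with DMSO (log2FC -0.25 ± 0.073, adjusted p = 0.00497), opposite in direction to CARS1. AARS2 had 21.4, 27.3 and 28.2 CPM with GSK-J4, against 27, 24.8 and 26 CPM with DMSO (log2FC -0.016 ± 0.11, adjusted p = 0.931). SARS2 had 3.77, 6.30 and 5.65 CPM with GSK-J4, against 5.84, 5.68 and 7.82 CPM with DMSO (log2FC -0.29 ± 0.21, adjusted p = 0.326). AARS2 and SARS2 did not pass, their groups overlapped, and AARS2 in particular was level between the groups while AARS1 rose. WARS2 had 19.6, 15.2 and 17.3 CPM with GSK-J4, against 18.7, 20.1 and 22.1 CPM with DMSO (log2FC -0.22 ± 0.12, adjusted p = 0.169), beside the rise of WARS1. FARS2 had 21.4, 23.2 and 21.7 CPM with GSK-J4, against 25.3, 26.6 and 29.7 CPM with DMSO (log2FC -0.30 ± 0.11, adjusted p = 0.0328), beside the fall of FARSA. RARS2 had 53, 45.1 and 41 CPM with GSK-J4, against 54.6, 49.7 and 54.5 CPM with DMSO (log2FC -0.19 ± 0.089, adjusted p = 0.0943), beside the fall of RARS1. WARS2 and RARS2 overlapped between the groups and did not pass. In 4 pairs, those of cysteine, isoleucine, leucine and tyrosine, both genes passed in opposite directions at 24 h. YARS1 had 469, 509 and 517 CPM with GSK-J4, against 363, 364 and 360.2 CPM with DMSO (log2FC 0.46 ± 0.047, adjusted p = 3.95e-12), while YARS2 fell. LARS1 had 260.3, 261 and 265 CPM with GSK-J4, against 233, 234 and 215 CPM with DMSO (log2FC 0.20 ± 0.056, adjusted p = 0.00312), while LARS2 fell. Both cytosolic genes were above DMSO in every GSK-J4 library.

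The summed levels of both classes were also set side by side. The 19 cytosolic genes summed to 8450 ± 147 CPM with GSK-J4 and 6187 ± 28.8 CPM with DMSO at 6 h, and to 6847 ± 159 CPM with GSK-J4 and 5628 ± 81.2 CPM with DMSO at 24 h (mean ± SD, n = 3 each). The 16 mitochondrial genes summed to 738 ± 10.5 CPM with GSK-J4 and 780.4 ± 10.2 CPM with DMSO at 6 h, and to 526 ± 14.5 CPM with GSK-J4 and 622 ± 11.2 CPM with DMSO at 24 h. The ratio of the cytosolic to the mitochondrial sum averaged 8.21, 8.94, 11.5 and 13 with GSK-J4, 8.40, 9.02, 7.84 and 9.27 with ZnSO4, and 7.92, 8.02, 7.93 and 9.06 with DMSO at 1, 3, 6 and 24 h, and 7.91 ± 0.451 at T0. At 6 and 24 h the GSK-J4 libraries had the highest ratios of the 3 treatments without overlap, and at 3 h GSK-J4 and ZnSO4 lay together above DMSO. GARS1 and KARS1, which make both forms, were counted as cytosolic, and the most abundant genes weigh most in a sum. The ratio is therefore not a balance between the compartments. These sums were not tested, since the genes were chosen with results known.

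**Figure D4:**
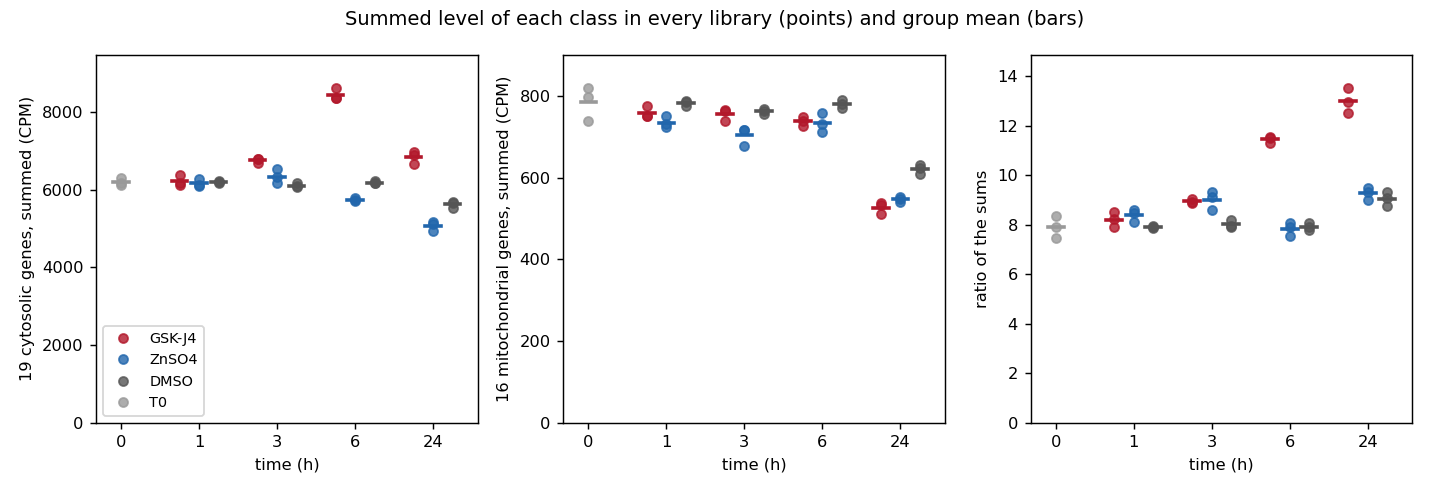
Summed TMM-scaled CPM of the 19 cytosolic genes (left) and the 16 mitochondrial genes (middle), and their ratio (right), by time in hours with T0 at 0. Points are libraries and bars are group means; the GSK-J4 ratio averages 11.5 at 6 h and 13 at 24 h, above the ZnSO4 and DMSO libraries of those times.

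With ZnSO4 some cytosolic genes were called higher at 3 h, while those called at 6 and 24 h were lower than DMSO. By its own test the effect moved down in 1 of 19 genes from 3 to 6 h (all genes lower: 1.56%). From 6 to 24 h it did so in 1 of 19 (all genes lower: 0.297%). The 24 h effect of ZnSO4 was not tested against the 3 h effect. At 3 h 5 of 19 cytosolic genes rose (all genes: 6.59%) and 2 fell (all genes: 4.16%), with a median of 0.018; with libraries scaled by their totals 2 rose and 2 fell. GARS1 had 656, 682 and 692 CPM with ZnSO4, against 584, 562 and 588 CPM with DMSO (log2FC 0.23 ± 0.045, adjusted p = 0.000115). CARS1 had 91.7, 93.7 and 95.4 CPM with ZnSO4, against 79.8, 79.8 and 81.7 CPM with DMSO (log2FC 0.22 ± 0.065, adjusted p = 0.0147). YARS1 had 393, 402 and 401 CPM with ZnSO4, against 343, 346 and 345 CPM with DMSO (log2FC 0.21 ± 0.048, adjusted p = 0.000903). These 3 were also among the 5 largest rises with GSK-J4 at that time; the 2 compounds share their DMSO libraries. Each ZnSO4 library was above each DMSO library. AARS1 had 333, 346 and 338 CPM with ZnSO4, against 319, 301 and 277 CPM with DMSO (log2FC 0.18 ± 0.050, adjusted p = 0.0103). TARS1 had 530.5, 598 and 556 CPM with ZnSO4, against 517, 511 and 492 CPM with DMSO (log2FC 0.15 ± 0.049, adjusted p = 0.0357). Of the 5, TARS1 lost its call under 8, CARS1 under 5 and AARS1 under 3 of the 11 alternative settings. In the full set their groups did not overlap (all genes: 27.5%). On the falling side FARSA had 208, 219.8 and 203 CPM with ZnSO4, against 262, 252 and 238 CPM with DMSO (log2FC -0.25 ± 0.059, adjusted p = 0.00128). RARS1 had 72.6, 81.7 and 82.5 CPM with ZnSO4, against 92, 90.8 and 99 CPM with DMSO (log2FC -0.24 ± 0.069, adjusted p = 0.0115). All ZnSO4 libraries of both lay below DMSO, and RARS1 lost its call under 3 alternative settings. In the mitochondrial class MARS2 alone fell at 3 h, 1 of 16 (all genes: 4.16%), with 49.7, 49.2 and 43 CPM with ZnSO4, against 60.4, 67.3 and 66 CPM with DMSO (log2FC -0.45 ± 0.083, adjusted p = 5.15e-05).

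Their counterparts at 3 h of ZnSO4 did not pass. CARS2 had 61.5, 71 and 65.8 CPM with ZnSO4, against 69.1, 64.3 and 69.6 CPM with DMSO (log2FC -0.025 ± 0.070, adjusted p = 0.902). YARS2 had 26.9, 24.6 and 23.4 CPM with ZnSO4, against 30.1, 29.2 and 24.2 CPM with DMSO (log2FC -0.18 ± 0.098, adjusted p = 0.302). AARS2 had 58.2, 45.6 and 50.6 CPM with ZnSO4, against 62.2, 56.4 and 59.9 CPM with DMSO (log2FC -0.22 ± 0.085, adjusted p = 0.0899). Their log2FC were below 0 and their groups overlapped, while the cytosolic partners rose. TARS2 had 82, 77.5 and 68.5 CPM with ZnSO4, against 76.8, 79.3 and 74.3 CPM with DMSO (log2FC -0.022 ± 0.073, adjusted p = 0.924). MARS1 had 269.9, 303 and 272 CPM with ZnSO4, against 263, 257 and 262 CPM with DMSO (log2FC 0.12 ± 0.054, adjusted p = 0.196). FARS2 had 19.6, 28.1 and 23.9 CPM with ZnSO4, against 26.3, 24.6 and 26.7 CPM with DMSO (log2FC -0.089 ± 0.11, adjusted p = 0.722). The groups overlapped in TARS2 and FARS2 and were separate in MARS1. RARS2 completed the set with 43.5, 42.3 and 44.2 CPM with ZnSO4, against 41.2, 43.4 and 50.7 CPM with DMSO (log2FC -0.044 ± 0.090, adjusted p = 0.861).

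At 6 h of ZnSO4 8 cytosolic genes fell (all genes: 4.51%) and 11 did not pass, with a median of -0.098 against 0.0074 over all genes. FARSA had 206, 221 and 204 CPM with ZnSO4, against 255, 243 and 258 CPM with DMSO (log2FC -0.26 ± 0.060, adjusted p = 0.00139). LARS1 had 231, 237 and 242 CPM with ZnSO4, against 279, 287 and 286 CPM with DMSO (log2FC -0.26 ± 0.056, adjusted p = 0.000633). In both the ZnSO4 libraries lay below the DMSO libraries. KARS1 (-0.23 ± 0.049), RARS1 (-0.21 ± 0.071), VARS1 (-0.21 ± 0.057), EPRS1 (-0.20 ± 0.050), IARS1 (-0.16 ± 0.045) and NARS1 (-0.14 ± 0.044) were the others; RARS1 lost its call under 8 and NARS1 under 6 of the 11 alternative settings. Of the mitochondrial genes 2 of 16 fell (all genes: 4.51%). EARS2, for glutamate, had 48.3, 48.2 and 45.2 CPM with ZnSO4, against 55.4, 56.8 and 57.4 CPM with DMSO (log2FC -0.26 ± 0.076, adjusted p = 0.0178). MARS2 had 53.1, 52.6 and 54.4 CPM with ZnSO4, against 62.3, 62 and 66.5 CPM with DMSO (log2FC -0.25 ± 0.085, adjusted p = 0.0477). In both the groups were separate (all genes: 23.9%), but the EARS2 call was lost under 4 and the MARS2 call under 8 of the 11 alternative settings. Among their counterparts EPRS1 fell, as given above, with 404, 379 and 427 CPM with ZnSO4, against 461, 476 and 457 CPM with DMSO. MARS1 had 267, 246 and 248 CPM with ZnSO4, against 268, 246 and 253 CPM with DMSO (log2FC -0.013 ± 0.055, adjusted p = 0.93). FARS2 had 29.1, 26.8 and 23.8 CPM with ZnSO4, against 23.7, 25.1 and 25.3 CPM with DMSO (log2FC 0.10 ± 0.11, adjusted p = 0.665). LARS2 had 49.4, 45.1 and 47.5 CPM with ZnSO4, against 56.5, 56.5 and 48.6 CPM with DMSO (log2FC -0.18 ± 0.079, adjusted p = 0.145). The last 3 overlapped with DMSO and did not pass.

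At 24 h of ZnSO4 10 cytosolic genes fell (all genes: 5.58%) and 9 did not pass, with a median of -0.17 against -0.0018 over all genes, and 6 of the 10 had also fallen at 6 h. KARS1 led them, with 415, 391 and 388 CPM with ZnSO4, against 474, 489 and 497 CPM with DMSO (log2FC -0.29 ± 0.049, adjusted p = 1.36e-05). FARSA (-0.28 ± 0.068), VARS1 (-0.23 ± 0.057), AARS1 (-0.20 ± 0.058), IARS1 (-0.19 ± 0.046), EPRS1 (-0.19 ± 0.050), LARS1 (-0.18 ± 0.058), MARS1 (-0.18 ± 0.059), YARS1 (-0.17 ± 0.049) and GARS1 (-0.15 ± 0.045) were the others, so that GARS1, AARS1 and YARS1 had risen at 3 h and fell at 24 h. Of these, MARS1 lost its call under 7 and GARS1 and LARS1 each under 5 of the 11 alternative settings. For GARS1 the 6 h effect was below the 3 h effect (difference -0.25 ± 0.063, adjusted p = 0.0129) and for AARS1 the 24 h effect was below the 6 h effect (difference -0.31 ± 0.077, adjusted p = 0.0476), each 1 of 19 cytosolic genes (all genes lower: 1.56% and 0.297%). Leaving out single libraries gave between 0 and 2 calls for the 6 h difference and between 0 and 1 for the 24 h difference. Of the mitochondrial genes 4 of 16 fell (all genes: 5.58%), with a median of -0.19. YARS2 had 19.8, 19.2 and 19.8 CPM with ZnSO4, against 27.8, 29.4 and 31.8 CPM with DMSO (log2FC -0.60 ± 0.11, adjusted p = 7.08e-05). EARS2 had 20.3, 18.5 and 17 CPM with ZnSO4, against 22.4, 24.2 and 27.1 CPM with DMSO (log2FC -0.40 ± 0.11, adjusted p = 0.00792). NARS2, for asparagine, had 23.8, 23.1 and 25 CPM with ZnSO4, against 32.9, 32.9 and 26.8 CPM with DMSO (log2FC -0.37 ± 0.11, adjusted p = 0.0213). The groups were separate in all 3 (all genes: 25.9%), and NARS2 lost its call under 4 and EARS2 under 2 of the 11 settings. YARS2 was the largest mitochondrial fall among called genes with either compound at 24 h. TARS2 (-0.24 ± 0.076) was the last and lost its call under 6 of the 11 settings. YARS1, the partner of YARS2, had 340.5, 312 and 312 CPM with ZnSO4, against 363, 364 and 360.2 CPM with DMSO. EPRS1, the partner of EARS2, had 440.3, 448 and 398 CPM with ZnSO4, against 489, 502 and 472 CPM with DMSO. NARS1, the partner of NARS2, had 421, 412 and 406 CPM with ZnSO4, against 454, 453 and 448 CPM with DMSO (log2FC -0.13 ± 0.046, adjusted p = 0.0579) and did not pass.

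At 1 h of ZnSO4 the calls were in the mitochondrial class, where 2 of 16 genes fell (all genes: 0.18%). PARS2, for proline, had 12.7, 13.3 and 12.9 CPM with ZnSO4, against 23, 18.4 and 15.8 CPM with DMSO (log2FC -0.58 ± 0.14, adjusted p = 0.0157). MARS2 had 50.7, 54.7 and 54.5 CPM with ZnSO4, against 69.4, 65.4 and 67.8 CPM with DMSO (log2FC -0.34 ± 0.080, adjusted p = 0.016). The ZnSO4 libraries lay below the DMSO libraries in both (all genes with separate groups: 12.1%), but PARS2 lost its call in 3 and MARS2 in 4 of the 6 fits that left out 1 library. In the cytosol EPRS1 had 456, 444 and 429 CPM with ZnSO4, against 466, 459 and 479.5 CPM with DMSO (log2FC -0.079 ± 0.049, adjusted p = 0.859). MARS1 had 279.8, 253 and 253 CPM with ZnSO4, against 262, 267 and 265 CPM with DMSO (log2FC -0.018 ± 0.054, adjusted p = 0.987). Of the 19 cytosolic genes edgeR called 0, with 0 at an unadjusted p under 0.05, and DESeq2 called 0.

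Tested against each other, the compounds differed in the cytosolic class at 6 and 24 h. At 6 h 13 of 19 genes were higher with GSK-J4 than with ZnSO4 (all genes: 8.53%), with a median log2FC of 0.50, and these were the 12 that rose against DMSO and VARS1 (0.23 ± 0.057). GARS1 differed most, with 1204, 1186 and 1148 CPM with GSK-J4, against 560.2, 616 and 596 CPM with ZnSO4 (log2FC 1.00 ± 0.045, adjusted p = 5.61e-28). At 24 h 12 were higher (all genes: 12%) and FARSA, RARS1 and FARSB were lower (all genes: 12.5%), with a median of 0.39. CARS1 then had 114, 113 and 119.7 CPM with GSK-J4, against 55.3, 53.1 and 50.5 CPM with ZnSO4 (log2FC 1.13 ± 0.072, adjusted p = 3.61e-20). KARS1 fell against DMSO with both compounds at 24 h, and the direct difference was -0.036 ± 0.049 (adjusted p = 0.651). Among the mitochondrial genes edgeR called 0 of 16 at 6 h, with 1 at an unadjusted p under 0.05 and 0 by DESeq2, and at 24 h LARS2 (-0.42 ± 0.098) and IARS2 (-0.22 ± 0.060) were lower with GSK-J4 (all genes: 12.5%); with library totals 3 genes of the class were higher and 1 lower. YARS2, which fell with both compounds at 24 h, had a direct difference of -0.24 ± 0.12 (adjusted p = 0.154). At 3 h FARSA (0.28 ± 0.057), CARS1 (0.20 ± 0.059), LARS1 (0.16 ± 0.054), NARS1 (0.13 ± 0.043) and, of the mitochondrial genes, MARS2 (0.36 ± 0.079) were higher with GSK-J4 (all genes: 3.99%). The cytosolic 3 h count is unsettled, at 4 here, 11 with libraries scaled by their totals and 1 without the filter on low counts, and the mitochondrial count was 1 here and 5 with library totals. At 1 h edgeR called 0 genes of either class (all genes: 0.664% in either direction), with 0 cytosolic and 2 mitochondrial genes at an unadjusted p under 0.05, and DESeq2 called 0 and 0. Since no dose is given, the comparison is of these treatments as applied.

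DMSO libraries at 24 h differed from T0 in many genes. In either direction, 57.9% of the cytosolic and 75% of the mitochondrial genes were called, against 63.2% of all genes tested. The counts by direction are given below beside their shares over all genes. Time and solvent differ together in this comparison and cannot be told apart. In DMSO libraries at 24 h against T0, 8 of 19 cytosolic genes were lower (all genes: 32.7%) and 3 higher (all genes: 30.5%), with AARS1 (-1.19 ± 0.052) and FARSA (-1.09 ± 0.061) lowest and QARS1 (0.41 ± 0.052), WARS1 (0.36 ± 0.051) and KARS1 (0.22 ± 0.047) higher. AARS1 had 151, 147 and 148 CPM in DMSO at 24 h, against 333, 335 and 347 CPM at T0. Of the mitochondrial genes 9 of 16 were lower (all genes: 32.7%) and 3 higher (all genes: 30.5%), with a median of -0.30. PARS2 showed the largest change of all members, with 1.36, 1.42 and 0.782 CPM in DMSO at 24 h, against 16.8, 16.6 and 18.7 CPM at T0 (log2FC -3.82 ± 0.23, adjusted p = 5.61e-23). Its 24 h levels, at 1.44, 2.41 and 2.29 CPM with GSK-J4 and 0.5, 0.777 and 1.42 CPM with ZnSO4, were close to the floor of 3 counts, and neither compound differed from DMSO there by the test. MARS2 (-1.49 ± 0.091), EARS2 (-1.28 ± 0.080) and AARS2 (-1.27 ± 0.093) were also much lower, while SARS2 (0.52 ± 0.21), RARS2 (0.35 ± 0.088) and IARS2 (0.13 ± 0.055) were higher. With libraries scaled by their totals the median of all genes moved to -0.24 (main: -0.017), and the cytosolic genes then divided into 2 higher and 15 lower and the mitochondrial ones into 0 higher and 10 lower, so the small differences from T0 depend on the scaling. At 1, 3 and 6 h of DMSO edgeR called 0 genes of either class against T0 (all genes: 0.0346%, 0.0968% and 0.0138% in either direction), with 1, 2 and 2 cytosolic and 0, 2 and 0 mitochondrial genes at an unadjusted p under 0.05, and DESeq2 called 0, 1 and 0 cytosolic and 0, 0 and 0 mitochondrial genes.

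The cytosolic genes with the composite element in the windows printed above can be set beside those without it. This grouping was made after their values were seen. LARS1, VARS1 and YARS1 had no window and are in neither set. Of them, LARS1 and YARS1 rose at 6 and 24 h of GSK-J4 and VARS1 fell at 24 h. With GSK-J4 all 7 with a match (AARS1, CARS1, GARS1, IARS1, MARS1, NARS1 and TARS1) rose at 6 h (all genes: 9.83%) and at 24 h (all genes: 15.2%), with medians of 0.67 and 0.65. Of the 9 cytosolic genes whose windows hold no match, 3 rose (EPRS1, SARS1 and WARS1), 4 fell (FARSA, FARSB, KARS1 and RARS1; all genes: 10.5% at 6 h and 16.8% at 24 h) and 2 did not pass (HARS1 and QARS1) at both times, with medians of -0.073 and -0.12. At 3 h 6 of the 7 and 1 of the 9 rose (all genes: 1.45%). With ZnSO4 4 of the 7 and 0 of the 9 rose at 3 h (all genes: 6.59%), and at 24 h 4 of the 7 and 3 of the 9 fell (all genes: 5.58%). YARS2, the mitochondrial gene with a match, fell with GSK-J4 at 24 h and did not pass at 6 h (-0.23 ± 0.099). No test was made between the sets, and the absence of a match says only that these letters are not in the window.

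**Figure D5:**
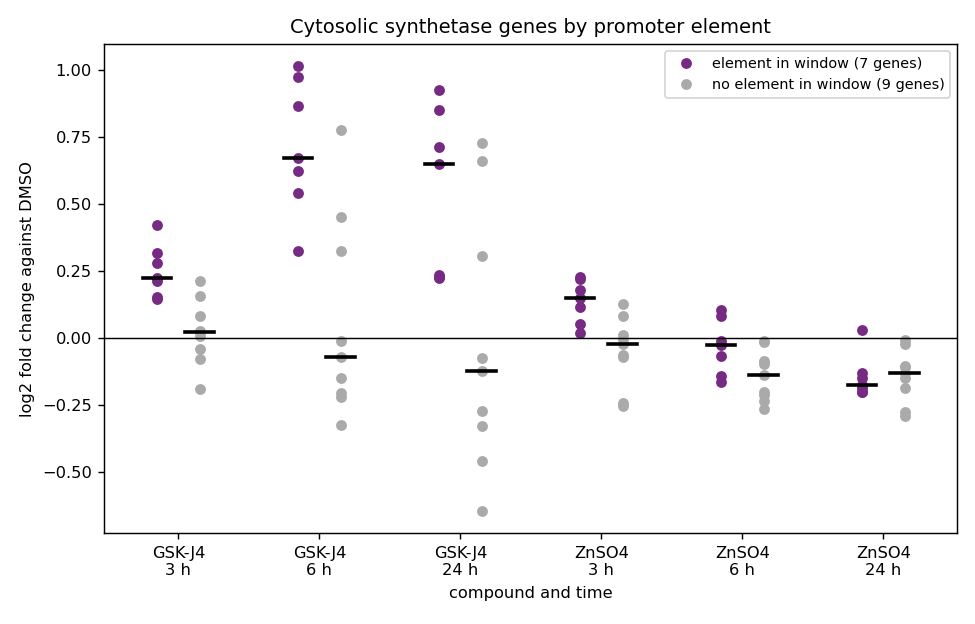
Log2 fold change against DMSO at 3, 6 and 24 h of GSK-J4 (left) and ZnSO4 (right) for the 7 cytosolic genes with a match to the composite element in their promoter window and the 9 without; points are genes and black bars are medians. With GSK-J4 at 6 h the points with a match run from 0.32 to 1.01 and those without from -0.32 to 0.77. LARS1, VARS1 and YARS1, which had no window, are not shown.

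Genes of the integrated stress response list (13 genes) also changed. With GSK-J4 7 of 13 rose at 3 h (all genes: 1.45%). At 6 h 8 rose (all genes: 9.83%) and 3 fell (all genes: 10.5%), and at 24 h 8 rose (all genes: 15.2%) and 2 fell (all genes: 16.8%). A rise at 24 h is against DMSO only. In DMSO at 24 h against T0, 5 of the 13 were higher (all genes: 30.5%) and 3 lower (all genes: 32.7%), with log2FC from -4.35 to 4.19. At 6 h CHAC1, a glutathione-degrading enzyme, SESN2, a stress-induced regulator of growth signalling, and DDIT3 had the largest changes (log2FC 3.19 ± 0.14, 2.69 ± 0.088 and 2.60 ± 0.15), and ATF4 itself rose by 0.62 on the log2 scale. With ZnSO4 6 rose (all genes: 6.59%) and 1 fell (all genes: 4.16%) at 3 h. They were led by PPP1R15A (1.69 ± 0.13), a phosphatase subunit that ends the response, with SESN2 (1.46 ± 0.093) and DDIT3 (0.73 ± 0.18). At 6 h of ZnSO4 1 rose (all genes: 4.81%) and 4 fell (all genes: 4.51%). PPP1R15A was the 1 that rose (0.88), and SESN2 was then at -0.46 ± 0.11. At 24 h of ZnSO4 2 rose (all genes: 3.98%) and 4 fell (all genes: 5.58%), with DDIT3 higher (0.56 ± 0.099) and GCN1 (-0.34 ± 0.063) and ASNS (asparagine synthetase, -0.34 ± 0.081) lower.

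Among genes for other steps of translation, most that passed with GSK-J4 were lower. Calls in these lists and in the stress response list, with either compound, were not checked under the alternative settings. Among the synthetases, the falls of CARS2 (-0.25), FARS2 (-0.30) and VARS1 (-0.18) at 24 h of GSK-J4 lost their calls with library totals. Over all genes tested, 9.83% were called higher and 10.5% lower at 6 h of GSK-J4, and 15.2% higher and 16.8% lower at 24 h, so that 1 of 5 or 1 of 9 genes called is near the share over all genes. Of the 7 cytosolic members known to sit in the multisynthetase complex (EPRS1, IARS1, KARS1, LARS1, MARS1, QARS1 and RARS1, a grouping made after their values were seen), 4 rose and 2 fell at 6 h of GSK-J4, and of the 12 others 8 rose and 2 fell. The scaffold proteins of that complex were lower: AIMP1 (-0.20 ± 0.070) and AIMP2 (-0.29 ± 0.081) fell at 6 h, 2 of 3, and all 3 with EEF1E1 (-0.22 ± 0.087) fell at 24 h. XPOT, the exporter of tRNA from the nucleus, rose (0.44 ± 0.049 at 6 h and 0.66 ± 0.048 at 24 h), while ELAC2, which trims the ends of tRNA precursors (-0.36 ± 0.065 and -0.60 ± 0.064), and SSB, which binds them (-0.27 ± 0.056 and -0.56 ± 0.056), fell, so that 1 of 5 rose and 2 fell at each time. Of 5 cytosolic elongation factor genes tested, EIF5A fell at 6 h (-0.25 ± 0.043) and EIF5A (-0.45 ± 0.042), EEF1B2 (-0.26 ± 0.054) and EEF2 (-0.13 ± 0.042) at 24 h. On the mitochondrial side TUFM alone of 9 translation factors fell at 6 h (-0.18 ± 0.048), and TSFM (-0.52 ± 0.086), GFM2 (-0.49 ± 0.088), TUFM (-0.44 ± 0.047) and GFM1 (-0.27 ± 0.053) fell at 24 h. MTFMT, which formylates the mitochondrial initiator tRNA, fell at 24 h (-0.54 ± 0.11), 1 of 4 genes of mitochondrial tRNA charging outside the synthetases.

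With ZnSO4 the calls in these lists were all falls. Over all genes tested, 0.18%, 4.16%, 4.51% and 5.58% were called lower at 1, 3, 6 and 24 h. MTRF1L, a mitochondrial release factor, fell at 1 h (-0.46 ± 0.11), 1 of 9 mitochondrial translation factors. ELAC2 fell at 3, 6 and 24 h (-0.27 ± 0.064, -0.46 ± 0.066 and -0.40 ± 0.065) and SSB at 6 and 24 h (-0.18 ± 0.056 and -0.24 ± 0.056). EEF2 fell at 6 and 24 h (-0.22 ± 0.042 and -0.22 ± 0.042) and EIF5A at 24 h (-0.15 ± 0.042), and of the mitochondrial factors GFM1 fell at 6 h (-0.28 ± 0.058) and TUFM (-0.26 ± 0.047) and GFM1 (-0.17 ± 0.054) at 24 h.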

How the data were processed

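RNA-seq counts per gene were analysed for 39 libraries of JJN3 cells, in 13 groups of 3 by treatment and time, as the sample labels give them (the protocol in the labels names 3, 6 and 24 h but not 1 h). The authors deposited raw, whole-number counts for each gene; per the submitters' processing notes reads were aligned with HISAT2 2.1.0 to hg19, while no counting tool, annotation or use of strand is given in the sources used here. Symbols were matched for 51996 of 57773 identifiers through a name table.

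All libraries were fitted together in R 4.3.3 with the quasi-likelihood test of edgeR 4.0.16 (limma 3.58.1, TMM, filterByExpr with a minimum count of 10, no covariate beside group), and p-values were adjusted by Benjamini-Hochberg over the 14460 genes kept, separately for each of 20 comparisons. Standard errors were obtained by dividing the absolute log2FC by the root of the F statistic, with 26 residual degrees of freedom and a biological coefficient of variation of 4.80%. No replicate pair agreed within counting noise (chi-squared per gene 1.21 to 7.33). On data simulated for GSK-J4 against DMSO at 6 h (14304 genes, 200 changed) the fit recovered 35.7% of 70 at 1.25-fold, 64.4% of 59 at 1.5-fold and 84.5% of 71 at 2-fold, and 4 of its 127 calls were false. In the data 2947 of 14460 genes (20.4%) were called in that comparison. The adjustment of p depends on how many genes change, so these recovery shares do not carry over to the data. Exon lengths, overlapping genes and their shared exon bases came from an annotation of another build, which may differ from the one used for counting. Promoter windows are RefSeq's for GRCh38.p14.

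The members and the other gene lists were chosen with earlier results of these data known. Values by library were planned for at most 5 rises and 4 falls, the largest among members called when a compound is compared with DMSO, and for their counterparts. Beyond this they are given for TARS1 and NARS1 at 6 h and MARS1 and NARS1 at 24 h of GSK-J4, and for DDIT3. They are also given for some genes at T0 or between the compounds. Of other lists up to 3 called genes per comparison are named, and GFM1 and ATF4 were added after their values were seen. Alternatives were scaling by RLE size factors or by library totals, dropping the filter, DESeq2 1.42.0, separate fits of the groups compared, and leaving out each library.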

Additional observations from a re-analysis of the deposited data

Results flagged for a closer look

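The size of an effect differed between times, by a test of the difference itself, for the following synthetase genes. With GSK-J4 the effect against DMSO was larger at 6 h than at 3 h for GARS1 (by 0.66 on the log2 scale), CARS1 (0.59), AARS1 (0.59), SARS1 (0.56), MARS1 (0.45), TARS1 (0.41), NARS1 (0.39), WARS1 (0.29), YARS1 (0.27) and EPRS1 (0.24), all of them cytosolic. From 6 to 24 h the GSK-J4 effect moved down for YARS2 (-0.61), FARSA (-0.43), TARS1 (-0.40), NARS1 (-0.32) and GARS1 (-0.26). With ZnSO4 it moved down from 3 to 6 h for GARS1 (-0.25) and from 6 to 24 h for AARS1 (-0.31).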

How the results depend on the processing

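Of 82 member calls against DMSO, 49 held under every alternative and 0 changed direction; 13 were lost with library totals, 12 without the filter, 6 when only the groups compared were fitted, 2 with RLE size factors, 1 with DESeq2, and 98 of 492 checks were lost when 1 library was left out, which uses fewer libraries. The cytosolic counts with GSK-J4 against DMSO stayed within 1.5 times at every time and setting. The following counts moved by more, and the cause was not tested.

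Against DMSO, the mitochondrial count with GSK-J4 at 6 h (2) was 1 without the filter and 1 with DESeq2, and 1 to 2 with a library left out (1 without DMSO replicate 1 or any GSK-J4 library); at 24 h (5) it was 3 with library totals. With ZnSO4 the mitochondrial count at 1 h (2) was 0 to 2 with a library left out (0 without DMSO replicate 1 or ZnSO4 replicates 1 or 3). At 3 h the cytosolic count (7) was 4 with library totals, 4 without the filter and 4 to 6 with a library left out (4 without DMSO replicate 3), and the mitochondrial count (1) was 3 with library totals, 2 with only the groups compared and 1 to 2 with a library left out (2 without DMSO or ZnSO4 replicate 1). At 6 h the cytosolic count (8) was 5 with only the groups compared and 5 to 7 with a library left out (5 without DMSO replicate 3 or ZnSO4 replicates 2 or 3), and the mitochondrial count (2) was 1 with library totals, 1 without the filter, 0 with only the groups compared and 0 to 1 with any library left out. At 24 h the cytosolic count (10) was 5 to 9 with a library left out (5 without DMSO replicate 1, 6 without DMSO replicate 2 or ZnSO4 replicates 2 or 3) and the mitochondrial count (4) 2 to 3 (2 without any DMSO library or ZnSO4 replicates 1 or 2).

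Between GSK-J4 and ZnSO4 at 3 h the cytosolic count (4) was 11 with library totals, 1 without the filter and 1 to 4 with a library left out (1 or 2 without any GSK-J4 library or ZnSO4 replicates 1 or 3), and the mitochondrial count (1) was 2 with RLE size factors, 5 with library totals and 1 to 2 with a library left out (2 without ZnSO4 replicates 1 or 2); the mitochondrial count at 24 h (2) was 4 with library totals. Against T0, the cytosolic count for DMSO at 3 h (0) was 1 with DESeq2 and 0 to 2 with a library left out, at 6 h (0) 0 to 1, both times up without T0 replicate 1, and at 24 h (11) 17 with library totals. For differences between times, the mitochondrial count of GSK-J4 from 6 to 24 h (1) was 1 to 2 with a library left out (2 without GSK-J4 24 h replicate 3). With ZnSO4 the cytosolic count from 3 to 6 h (1) was 0 with library totals, 4 with DESeq2 and 0 to 2 with a library left out (0 without DMSO 3 h replicate 2, ZnSO4 3 h replicate 3 or ZnSO4 6 h replicate 1). From 6 to 24 h the cytosolic count (1) was 0 with RLE size factors, library totals or no filter and 0 to 1 with a library left out (0 without 9 of the 12 libraries), and the mitochondrial count (0) was 0 to 1 (1 without ZnSO4 6 h replicate 2).

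Fits with only the groups compared were not run for GSK-J4 against ZnSO4, for DMSO against T0 or for differences between times. No paired analysis was possible because the labels carry no replicate numbers. The replicate numbers used above follow the order in which the samples of a group are listed. They do not link libraries of different groups. Counting depth limits most of all PARS2 at 24 h, where single libraries lay at 0.500 to 2.41 CPM, and SARS2, at 3.11 to 9.26 CPM throughout. It also limits calls in the rest of the mitochondrial class, whose levels were mostly lower than the cytosolic ones.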
